A study of Drosophila melanogaster with 4 samples.

Results

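Chromosome 4 of Drosophila melanogaster was described here in successive 5 kb windows from base 1, each with the percent of its bases inside H3K9me3 clusters. The sequence is 1351857 bp long in the file headers, which gave 271 windows of the 27949 on the 13 sequences that carry clusters. The last window held 1857 bp and every other window was complete. All 271 windows were kept and no filter on coverage was used.

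The mark, trimethylation of lysine 9 of histone H3, was mapped by ChIP-seq in head nuclei of wild-type Oregon-R adults of mixed age, raised in population cages. There were 2 ChIP libraries, made with an antibody lot that the labels call new, and 2 input libraries, whose titles carry the same replicate numbers. The labels do not give the sex, and nothing in them says that the replicates came from separate collections, and their spread may therefore be technical only. Cluster lists were analysed for ChIP replicate 1, ChIP replicate 2 and the series as a whole (the combined set); no list of an input was analysed here, and the sequencing depth behind the lists is unknown.

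Trimethylated lysine 9 of histone H3 is bound by heterochromatin protein HP1a and marks the repeat-rich sequence around centromeres. Chromosome 4 is the smallest chromosome of the fly. Its genes lie among transposon remnants, and its gene-bearing arm carries HP1a and this mark although many of those genes are active. In flies the methyltransferase Eggless (SETDB1) is required for much of the mark on chromosome 4, and the protein POF binds this chromosome. The RefSeq table of the later Release 6 assembly names 80 protein-coding genes on it, among them cubitus interruptus (ci), the transcription factor of Hedgehog signalling, eyeless (ey) and twin of eyeless (toy), which specify the eye, and pangolin (pan), the transcription factor of Wnt signalling. The clusters are placed on FlyBase release 5, so no gene was placed on the windows. By the convention of the assembly, base 1 lies at the end nearest the centromere and the last base at the telomere end.

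Most of chromosome 4 was inside clusters. In replicate 1, 45.8% of windows were full and 13.3% empty. The shares for replicate 2 were 51.7% and 9.23%, and the other windows were covered in part. The median window was 96.8% covered in replicate 1 and 100% in both replicate 2 and the combined set, whereas the median over all 13 sequences was 0% in each list. As a whole the chromosome was 76.1% ± 3.46 covered (SD, n = 2 ChIP replicates). These are bulk chromatin samples, so fewer cells with the mark and less mark per cell cannot be told apart.

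A window was called dense where at least 90% of it was covered in both replicates, open where at most 10% was covered in both, and mixed otherwise. There were 150 dense windows, or 55.4% of the chromosome's windows, where 7.41% of all windows on the 13 sequences were dense. Of these, 117 were covered from end to end in both replicates (5.82% of all windows were). Open windows numbered 28, or 10.3%, where 69.7% of all windows were open, and 22 of them had no cluster in either replicate (67.7% of all windows). The other 93 windows were mixed, at a mean coverage of 54.1% in replicate 1 and 67.2% in replicate 2. The number of open windows depended on the list and on weak clusters. It was 64 when clusters below the median score of their file were left out, and 11 in the combined set.

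**Figure D1:**
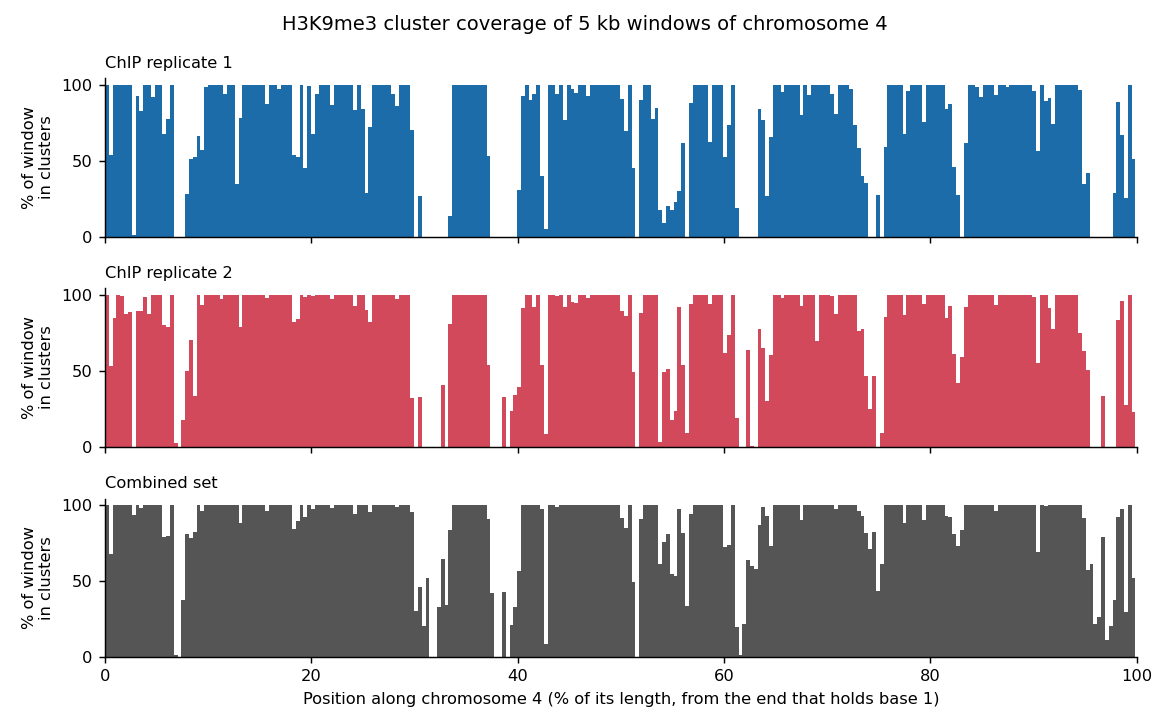
Percent of each 5 kb window of chromosome 4 (y axis) inside H3K9me3 clusters, by position as percent of the chromosome's length from base 1 (x axis), in ChIP replicate 1, ChIP replicate 2 and the combined set. Full windows form blocks separated by lower stretches, which are fuller in the combined set, and of 271 windows 150 are dense and 28 open in both replicates.

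Cluster coverage was not even along the chromosome. Long full stretches were separated by lower ones. From 100001 to 400000 coverage was 86.5% in replicate 1 and 94.3% in replicate 2, and 41 of the 60 windows were dense and 0 open. From 400001 to 600000 it was 50.2% and 55.3%, with 18 dense and 12 open windows among 40. The middle block from 600001 to 700000 was 88.3% and 90.2% covered. The stretches were delimited after the values had been seen, by 100 kb blocks and, at 1290001, by where open windows began, so the count of open windows on either side of that border is partly set by it.

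Coverage was lower again from 700001 to 900000, at 61.8% in replicate 1 and 68.1% in replicate 2, where 20 of 40 windows were mixed. It was 83.9% and 88.8% from 900001 to 1290000, where 52 of 78 windows were dense and 1 was open. The last 61.9 kb, from 1290001 to the end, was 29.2% and 29.3% covered and held 1 dense and 6 open windows. It was not the emptiest place of its size. The 60 kb from 395001 to 455000 was 17.5% covered in replicate 1 and 23.8% in replicate 2, the lowest of any run of 12 complete windows. The run from 400001 to 460000 was equally low, because the windows at 395001 and 455001 were both full in each replicate. In the combined set the low stretches were fuller, at 66.1% from 400001 to 600000, 81.0% from 700001 to 900000 and 50.6% from 1290001. The whole chromosome was 86.1% covered in that list, and so was the block from 700001 to 800000. These values are for the same borders, so they cannot show whether the low stretches of that list lie elsewhere. Over 100 kb blocks, the most covered lay from 300001 to 400000 (95.2% ± 4.02, n = 2). The complete blocks from 400001 to 500000 (52.4% ± 2.64) and from 500001 to 600000 (53.1% ± 4.55) were the lowest, and differed by less than the spread between replicates.

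Dense windows came in runs. There were 36 runs, and 95 of the 150 dense windows lay in the 12 runs of at least 5 windows. The longest was 90 kb, from 1130001 to 1220000, and was 98.7% covered in replicate 1 and 99.6% in replicate 2. Replicate 1 had 5 clusters in this run, and replicate 2 had 2. The next longest measured 70 kb (605001 to 675000, 98.8% and 99.1% covered) and 45 kb (455001 to 500000, 100% and close to 100%). The run at 455001 is an island, with an open window within 10 kb on either side.

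A run of 40 kb lay from 130001 to 170000 and one of 35 kb from 875001 to 910000. Runs of 30 kb lay at 180001 to 210000, 215001 to 245000, 350001 to 380000 and 1245001 to 1275000. Those of 25 kb lay at 300001 to 325000, 545001 to 570000 and 1075001 to 1100000. The run from 545001 to 570000 was the least complete of the 12, at 95.3% in replicate 1 and 96.6% in replicate 2. All 12 were between 99.8% and 100% covered in the combined set, and 11 of the 36 runs were single windows.

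Open windows also gathered. They formed 16 runs, of which 7 had at least 2 windows and 9 were single windows. The longest, 25 kb from 415001 to 440000, was 0% covered in each replicate and 20.9% in the combined set, by 4 clusters with a mean score, by covered base, of 0.38. Runs of 15 kb lay from 505001 to 520000 and from 1290001 to 1305000, each at 0% in both replicates, while combined clusters filled 14.0% of the first and 36.3% of the second. The runs of 10 kb lay at 90001 to 100000, 830001 to 840000, 845001 to 855000 and 1310001 to 1320000. The combined set covered 58.6% of the run from 845001 to 855000, by 3 clusters, but 0.75% of the run from 90001 to 100000.

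Seen base by base, 15 intervals of at least 5 kb had no cluster in either replicate. Together they measured 176 kb, or 67.3% of all the sequence that neither replicate called. The longest, from 412425 to 441735, measured 29.3 kb. Intervals of 18.9 kb (from 1288845), 17.9 kb (from 502681), 15.5 kb (from 825932) and 14.0 kb (from 90115) came next. Those at 522156, 1309423 and 845024 were 11.7, 11.2 and 10.8 kb long. The other 7 were between 5.15 and 8.05 kb long and began at 692472, 740881, 443750, 572671, 404823, 35055 and 998596.

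Some intervals were bordered abruptly and others through short clusters. The interval at 502681 followed directly on the longest cluster of replicate 1, 48.3 kb wide with a score of 1.19, which ended 30 bp before it, and on a cluster of 35.3 kb in replicate 2. On its far side, replicate 2 had a cluster of 1.63 kb, and the nearest cluster of replicate 1 was 21861 bp away and 1.53 kb wide. The longest interval, at 412425, had short clusters of 1.33 kb in replicate 1 and 1.62 kb in replicate 2 on its left. On its right, replicate 2 had a cluster of 2.01 kb, and replicate 1 had none for another 12573 bp. The longest uncalled interval was 42.4 kb in replicate 1 and 29.3 kb in replicate 2. The interval at 692472 was bordered by wide clusters on both sides: 7.93 and 17.1 kb in replicate 1, and 11.8 and 24.5 kb in replicate 2. Assembly gaps and sequence to which reads cannot be assigned were not examined, so these intervals are uncalled sequence and cannot be read as unmarked chromatin.

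Most uncalled intervals were short. Replicate 1 had 103 intervals without a cluster, with a median of 1144 bp, and 44.7% of them were under 1 kb. Replicate 2 had 92, with a median of 1104.5 bp, and 48.9% were under 1 kb. Dense and open windows seldom touched: a dense window lay directly beside an open one in only 2 places. Elsewhere at least 1 mixed window stood between them. A sharp border inside a window usually makes that window mixed, so this count is largely set by the windows and does not show gradual borders.

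At the end nearest the centromere the clusters began with the first bases and had the highest scores of the chromosome. A score is the authors' deposited value for a cluster, on a scale that is not stated, and is used here only within a list. The first cluster was 5.57 kb wide from base 15 in replicate 1, 5.49 kb from base 5 in replicate 2 and 5.90 kb from base 2 in the combined set. Its score was the highest of the chromosome for replicate 1 (2.78) and for the combined set (2.98), and the one after the highest for replicate 2 (3.23).

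The next stretch differed in how it was divided. Replicate 1 had a single cluster of 27.1 kb from 7906 to 35054, scored 1.84, and the combined set had a single one of 28.4 kb, scored 1.92. Replicate 2 had 3 clusters there: 3.65 kb from 7831 (score 3.65), 12.7 kb from 12247 (score 2.84) and 8.79 kb from 25649 (score 1.18). A score thus belongs to a whole cluster, and where replicate 2 split the stretch its first part scored higher than its last. A gap of 5.31 kb from 35055 to 40363 followed, without a cluster in either replicate but 93.6% covered in the combined set.

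The telomere end was less covered than the centromere end. The last 100 kb was 49.8% covered in replicate 1 and 50.7% in replicate 2, against 78.3% and 76.9% of the first 100 kb. The difference, last minus first, was -28.4 points in replicate 1 and -26.2 in replicate 2 (mean -27.3 ± 1.57), many times the SD between replicates. An exact two-sided sign-flip permutation test over 2 libraries gave p = 0.5, the smallest it allows, so no threshold can be passed. The size depended on the length taken as an end: it was -44.8 ± 2.84 points with ends of 50 kb and -7.22 ± 2.11 with ends of 200 kb. In the combined set, with ends of 100 kb, it was -19.1 points.

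The telomere end nevertheless closed with a pair of wider clusters. The last cluster ended 4292 bp before the end of the sequence in replicate 1, 5712 bp before it in replicate 2 and 4276 bp before it in the combined set. Its width was 8.83, 7.52 and 9.05 kb, and its score 1.56, 1.47 and 1.45. The cluster before it was 7.78 kb wide from 1325578 in replicate 1 and 8.96 kb from 1325834 in replicate 2. The 1857 bp of the final window held no cluster in any list. Between 1288845 and this pair, replicate 1 had a cluster of 1.44 kb (1320634 to 1322069) and replicate 2 another of 1.66 kb (1307762 to 1309422). These do not overlap, so the low stretch before the end held no cluster common to the replicates.

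**Figure D2:**
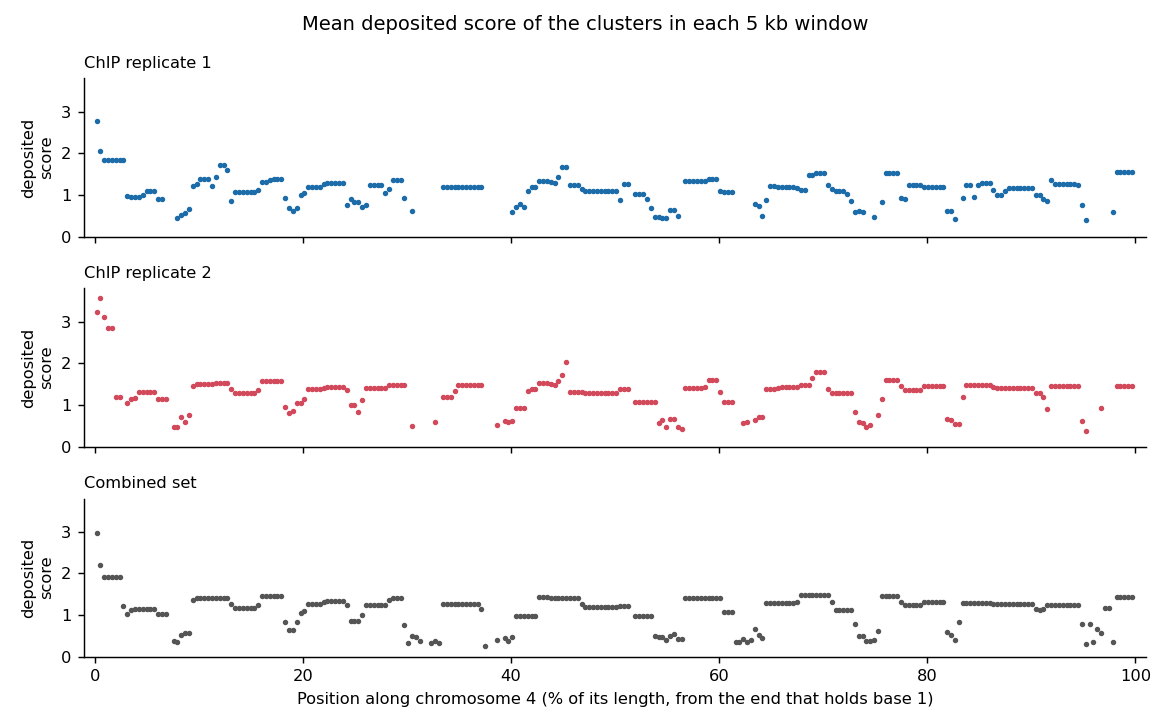
Mean deposited score of the clusters in each 5 kb window of chromosome 4, weighted by the bases each cluster covers there (y axis, no stated unit), by position as percent of the chromosome's length from base 1 (x axis), in the 3 lists. Windows without a cluster have no point. The highest points lie in the windows nearest base 1, at 2.78 for replicate 1, 3.57 for replicate 2 and 2.98 for the combined set.

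Scores elsewhere were lower. Over the 12 long dense runs they lay between 0.90 and 1.44 in replicate 1 and between 1.10 and 1.58 in replicate 2. Dense windows had a median score of 1.20 in replicate 1, against 1.42 in replicate 2 and 1.27 in combined clusters. The first 10 windows averaged 1.78, 2.21 and 1.80 by covered base, against 1.15, 1.32 and 1.16 for the sequence between the first and last 100 kb. The last 10 windows stood at 1.49, 1.42 and 1.21, above that middle sequence in each list although they were the less covered. Across the 232 windows with a cluster in both replicates, the Spearman correlation of the scores was 0.841. Windows inside the same cluster share a score, and this value is a description only.

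Clusters on chromosome 4 were of very unequal width. Replicate 1 had 102 clusters with a median width of 5640 bp (quartiles 2079.5 and 14913.5 bp), replicate 2 had 91 with a median of 6542 bp (2008.5 and 16903 bp), and the combined set had 97 with a median of 3196 bp (1606 and 15791 bp). There were 16 clusters of at least 20 kb in replicate 1, 21 such clusters in replicate 2 and 24 among the combined clusters, and they held 47.0%, 61.5% and 75.3% of the covered sequence. Those under 2 kb numbered 23, 22 and 31, and held 3.48%, 3.27% and 3.66%. The smallest widths were 1302, 1318 and 1001 bp. The combined set therefore had more clusters at both extremes and fewer between.

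The longest clusters of the replicates were largely the same places. In replicate 1 they began at 454309 (48.3 kb), 631989 (47.5 kb) and 1182397 (37.4 kb). In replicate 2 they began at 1166979 (53.0 kb), 631853 (47.6 kb) and 1126875 (39.8 kb). Each replicate covered at least 92.3% of each of the other's 10 longest clusters, counting its own clusters of any width. Some had no counterpart among the other's 10 longest, such as 765614 to 793074 in replicate 1 and 1126875 to 1166642 in replicate 2. The combined set had 53.5 kb as its longest, then 53.2 kb from 450839, 51.1 kb from 125493 and 48.3 kb from 765302. The 10 longest clusters held 34.2% of the covered sequence of replicate 1, 35.5% of that of replicate 2 and 40.4% of the combined set.

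Wide clusters had higher scores. Clusters of at least 20 kb had median scores of 1.24 (replicate 1), 1.43 (replicate 2) and 1.28 (combined set), against 0.50, 0.53 and 0.37 for those under 2 kb. Across clusters the Spearman correlation of width with score was 0.772 (n = 102), 0.761 (n = 91) and 0.806 (n = 97), as a description. How the caller computes a score, and whether width enters it, is not given in the sources used here.

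A few short clusters broke this pattern. In replicate 1, clusters of 2.04 kb at 1278388 to 1280430 and at 1239534 to 1241568 scored 2.11 and 2.09, next to the highest of that list. Replicate 2 covered 31.3% and 22.6% of these, and its own wide cluster, scored 1.47, ran from inside the one to inside the other. In replicate 2 a cluster of 1.45 kb from 613391 to 614839 scored 2.78. Replicate 1 called the same bases as the end of a cluster of 11.2 kb (603675 to 614839) with a score of 1.66.

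The lowest score of each list fell in a low stretch or beside one. The lowest of the combined set was 0.21, for a cluster of 1.59 kb from 504478 to 506064 that neither replicate called. The lowest of replicate 1 was 0.33 (1283707 to 1285350) and of replicate 2 0.36 (1287029 to 1288767), both just before the low telomere stretch, and both were called in each replicate.

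**Figure D3:**
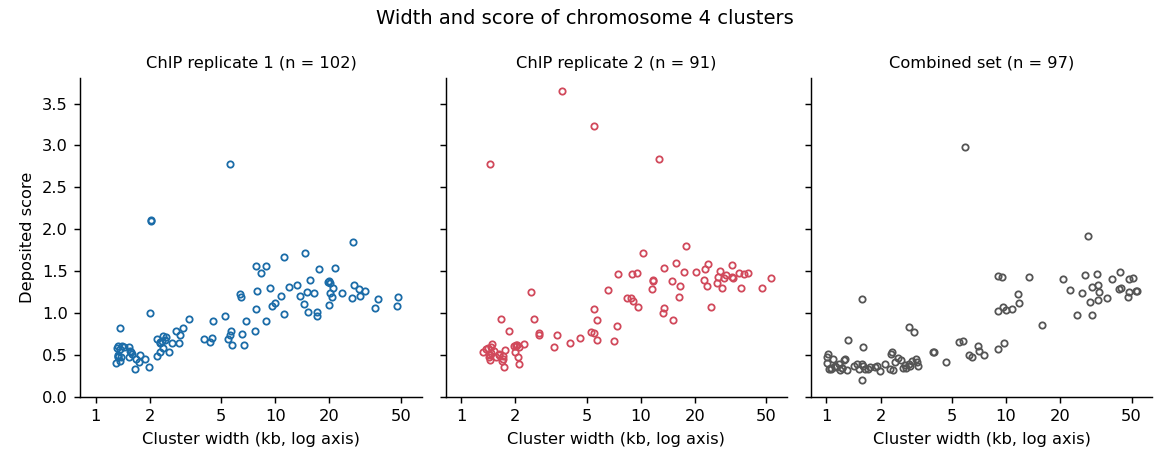
Width in kb on a log axis (x axis) and deposited score (y axis) of every chromosome 4 cluster (102 of replicate 1, 91 of replicate 2, 97 of the combined set). Score rises with width in each list, and the few short clusters far above the rest include those scored 2.11 and 2.09 in replicate 1 and 2.78 in replicate 2.

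The replicates shared most of the sequence they called. Both covered 71.4% of the chromosome (966 kb), neither covered 19.3% (261 kb), replicate 1 alone covered 2.19% (29.6 kb) and replicate 2 alone 7.09% (95.8 kb). The sequence of replicate 1 alone came in 54 stretches with a median of 302.5 bp and that of replicate 2 alone in 137 stretches with a median of 395 bp. The longest were 1754 and 3338 bp.

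Of the 271 windows, 139 had the same coverage in both replicates, being either full (117) or empty (22). Among the rest, replicate 2 was higher in 101 and replicate 1 in 31, and replicate 2 was higher in 13 of 14 blocks of 100 kb. Coverage differed by at most 10 percentage points in 209 windows (77.1%), where 86.3% of all windows on the 13 sequences did so. The share was 83.2% on 3LHet, 81.3% on 3RHet and 86.0% on 2RHet. A difference above 20 points was found in 36 windows, 30 of them with replicate 2 higher, and above 50 points in 7 windows, all with replicate 2 higher. No window was dense in one replicate and open in the other. For these last 3 counts the share over all windows of the 13 sequences was not computed. They therefore do not tell whether chromosome 4 differs from the other sequences. Across windows the coverage correlated with a Pearson r of 0.921 and a Spearman rho of 0.897, as a description, since neighbouring windows share clusters.

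**Figure D4:**
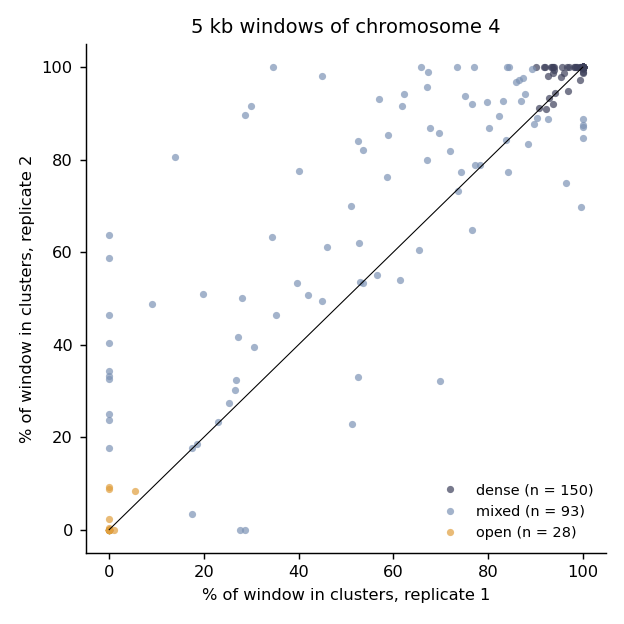
Percent of each 5 kb window of chromosome 4 inside clusters in replicate 1 (x axis) and replicate 2 (y axis), with the line of equality. Points are the 150 dense, 93 mixed and 28 open windows, many of them on top of each other at the corners. The 7 windows that differ by more than 50 points all lie above the line.

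The 10 windows that differed most were spread over the chromosome. The largest difference, 66.8 points, was at 450001 to 455000, which was 13.8% covered in replicate 1 and 80.6% in replicate 2. It lies at the left edge of the island run. The window at 170001 to 175000 was 34.5% and 100% covered, and that at 840001 to 845000 was 0% and 63.8% covered. Windows at 750001, 340001, 1120001 and 260001 differed by 53.1 to 61.6 points, and those at 1005001, 440001 and 730001 by 39.7 to 46.3 points. In each of these 10 windows replicate 2 was the higher one.

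Boundaries were close where a cluster had a single partner. There were 37 pairs in which a cluster of each replicate met only the other. Of their 74 boundaries 54 lay within 500 bp of each other, the median distance was 220.5 bp and the largest 3079 bp. Replicate 2 was the wider in 31 of the 37, by a median of 345 bp over all pairs. Elsewhere a cluster of one replicate met several of the other: 23 clusters of replicate 2 and 13 of replicate 1 did so. The extreme case was the cluster of 37.6 kb from 1241140 in replicate 2, which met 5 clusters of replicate 1. Of the 102 replicate 1 clusters, 52 lay wholly inside replicate 2 clusters, whereas 5 of the 91 replicate 2 clusters lay wholly inside those of replicate 1.

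Clusters without a partner were short and scored low. Replicate 1 had 5 of them, from 1329 to 1754 bp wide with scores of 0.47 to 0.60, and replicate 2 had 15, from 1318 to 2714 bp wide with scores of 0.44 to 0.93. For 8 of the 15, replicate 1 had no cluster within 5 kb either; these include 441736 to 443749, 520531 to 522155 and the pair at 841402 and 843559. The combined set overlapped all 5 and 14 of the 15; the exception was 843559 to 845023. On average over both directions, 89.3% ± 8.19 of clusters had a partner by an overlap of at least 1 bp. Replicates 1 and 2 covered 73.6% and 78.5% of the chromosome, so such an overlap is likely wherever a cluster lies. That share alone is therefore no measure of agreement. Where the overlap had to reach 50% of both clusters, the share was 62.4% ± 5.03.

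The combined set both filled in called places and added others. Of its 97 clusters, 54 met clusters of both replicates, 4 met replicate 1 alone, 13 met replicate 2 alone and 26 met neither. It added 78.3 kb (5.80% of the chromosome) outside both replicates, in 144 stretches with a median of 247.5 bp, and left out 5.14 kb that a replicate had called. Of the added sequence, 44.2 kb lay in mixed, 33.0 kb in open and 1.15 kb in dense windows, and the clusters that met neither replicate measured 37.4 kb together. Of the 93 mixed windows 47 were at least 90% covered in the combined set, and of the 150 dense windows 146 were full. Of the 28 open windows 17 were more than 10% covered in it and 6 at least 50%. A gain was not particular to chromosome 4. Over the 13 sequences the combined set covered 23.9%, against 16.6% in replicate 1 and 16.4% in replicate 2. The shares of clusters and windows gained were not computed for the other sequences. How the combined set was made is not given in the sources used here.

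The window changed most by the combined set was 35001 to 40000, near the centromere end: it was 93.2% covered there, against 1.08% in replicate 1 and 0% in replicate 2. The windows at 1290001, 845001, 850001, 1015001 and 420001 followed, with 51.8% to 61.2% of their bases in the combined set alone. The 26 clusters that met neither replicate were 1001 to 3058 bp wide, 19 of them lay inside the 15 long uncalled intervals, and 21 scored under 0.5. The other 5 scored 0.51 to 1.17 and began at 1282179, 1291826, 1301709, 1305362 and 1314438, before or in the low stretch at the telomere end. The highest of them was 1.59 kb wide, from 1314438 to 1316022. Only 8 windows had no cluster in any list: 95001, 425001, 430001, 510001, 515001, 525001 and 695001 by their first base, and the final short window.

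**Figure D5:**
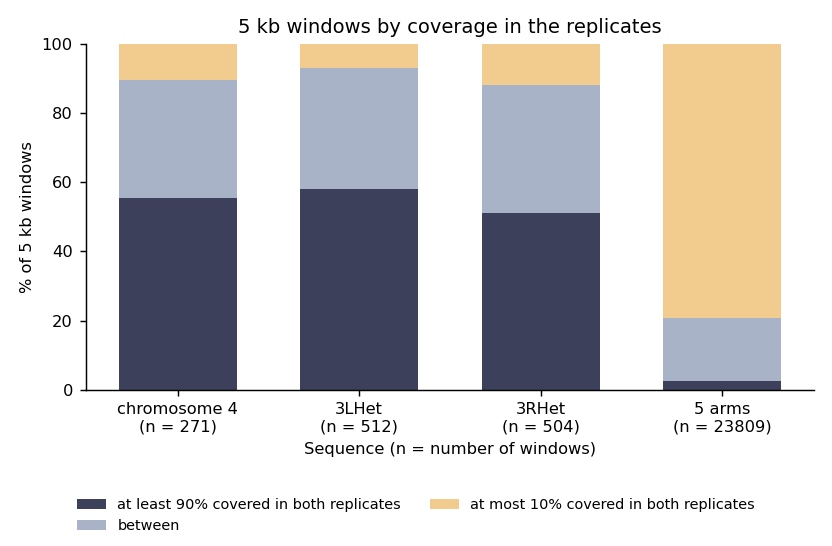
Percent of 5 kb windows (y axis) that were dense (at least 90% covered in both replicates), mixed or open (at most 10% covered in both), on chromosome 4 (271 windows), 3LHet (512), 3RHet (504) and the 5 arms (23809). Dense windows make up 55.4% of chromosome 4, 58.2% of 3LHet, 51.0% of 3RHet and 2.54% of the arms.

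Chromosome 4 was set against 3LHet and 3RHet, which hold heterochromatin assigned to arms of chromosome 3 in release 5, and against the 5 arms. 3LHet and 3RHet were chosen as the most covered heterochromatic sequences, and so by the same measure that is compared. 3LHet and 3RHet were 79.96% ± 1.76 and 73.4% ± 1.85 covered (SD, n = 2). Dense windows made up 55.4% of chromosome 4, 58.2% of 3LHet and 51.0% of 3RHet, mixed windows 34.3%, 35.0% and 37.1%, and open windows 10.3%, 6.84% and 11.9%. 2RHet, the like sequence of arm 2R, was less covered than chromosome 4, at 68.0% ± 1.37 (n = 2). On 2RHet 50.5% of windows were dense, 30.4% mixed and 19.1% open, so open windows were more frequent there than on chromosome 4. On the arms 2.54% of windows were dense and 79.4% open.

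In covered sequence, chromosome 4 minus 3LHet was -5.10 points in replicate 1 and -2.70 in replicate 2, and chromosome 4 minus 3RHet was 1.56 and 3.83. When clusters below the median score of their file were left out, the first was -11.0 ± 3.06 points and the second had the other sign, at -4.12 ± 3.07. Chromosome 4 minus the arms was 64.9 and 70.4 points. Each of these 3 exact two-sided sign-flip permutation tests over 2 libraries gave p = 0.5, the smallest possible. The differences from 3LHet and 3RHet averaged -3.90 ± 1.70 and 2.69 ± 1.61 points, which is under 3 times their SD, and that from the arms 67.7 ± 3.90.

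Median cluster widths in the replicates were close to those of 3LHet and 3RHet, and scores were not. The median width of clusters was 5640 and 6542 bp on chromosome 4, 6339 and 6491 bp on 3LHet and 6320 and 6722 bp on 3RHet, in replicates 1 and 2. In the combined set it was 3196 bp on chromosome 4, against 8661 and 7918 bp. In replicates 1 and 2, clusters under 2 kb made up 22.5% and 24.2% of those on chromosome 4. The shares were 12.3% and 14.7% on 3LHet and 14.6% and 12.7% on 3RHet. The longest cluster was 48.3 and 53.0 kb on chromosome 4, 68.5 and 70.6 kb on 3LHet, and 67.4 and 72.9 kb on 3RHet. Clusters of at least 20 kb had a median score of 1.24 on chromosome 4 in replicate 1, against 1.82 on 3LHet and 1.76 on 3RHet. In replicate 2 the values were 1.43 on chromosome 4, against 1.97 and 1.82, and in the combined set 1.28, against 1.83 and 1.72. Within this width class the score of chromosome 4 minus that of 3LHet was -0.56 ± 0.03 and minus that of 3RHet -0.46 ± 0.09 (n = 2 libraries; exact sign-flip permutation p = 0.5 for each, the smallest possible). The order was the same in every list, and the differences were several times their SD. Copy number, repeat content and read assignment may differ between these sequences. They were not measured, and their part in the scores was not tested.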

How the data were processed

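Bowtie 0.12.7 is the aligner named in the submitters' processing notes. Per the file headers, positions refer to FlyBase release 5. The deposited lists give each cluster's start, end and score; the authors' score has no stated scale, and the caller, its threshold and any use of the inputs were not given in the sources used here. No read counts were used, so depth is unknown and no counting interval was drawn on reads.

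Coordinates are 1-based and inclusive. Coverage of windows, runs, gaps, widths and overlaps came from Python 3.11.15 scripts (numpy 2.4.6, scipy 1.17.1, figures by matplotlib 3.10.9). No chromosome 4 cluster ran past the sequence end. Values are mean ± SD over 2 ChIP libraries; the combined set is a single list. Windows and clusters of a library are not replicates, so no test was made over them; differences within libraries were tested by exact sign-flip permutation. The code for window coverage, window classes, dense runs and shared clusters was tested on 50 simulated lists (13550 windows) with 0 errors. Each simulated cluster lay inside a single window. Clusters across window edges, partial overlaps, split clusters and scores were therefore not tested.

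The positions named are dense runs of at least 5 windows, open runs of at least 2, uncalled intervals of at least 5 kb, the longest clusters, the highest and lowest scores, and the 10 windows of largest difference or combined-set gain, in part by range only. Windows, thresholds and comparisons were chosen with earlier results of these data known.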

Additional observations from a re-analysis of the deposited data

How the results depend on the processing

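The 13 values that answer a comparison were recomputed under 92 alternatives in all: 67 stayed (differences by their sign, counts within 1.5 times, other values within 1 SD or, for a share of the combined set, its 95% Wilson interval over bases), 24 moved further and 1 changed sign. Bases of the same cluster are not independent, so that interval is too narrow, and moves beyond it are a description only. Some outcomes were fixed in advance, as given below, so the tally does not measure robustness. When clusters below the median score of their file were left out, coverage of chromosome 4 was 67.5%, open windows numbered 64, the last 100 kb was 43.8% covered, the median width was 15035 bp, the combined set added 6.71% of the chromosome, and chromosome 4 minus 3RHet was -4.12 points. Using the combined set instead gave 86.1% coverage, 11 open windows, 66.8% of the last and 85.9% of the first 100 kb, and a median width of 3196 bp. Joining clusters up to 1 kb apart gave 79.6% of the first 100 kb and 6.22% added by the combined set. Windows of 2 kb gave 414 dense, 88 open and 537 agreeing windows of 676, and windows of 10 kb gave 68, 8 and 105 of 136. These counts change with the number of windows itself. As shares, open windows were 13.02% at 2 kb and 5.88% at 10 kb, against 10.3% in the main setting. Dense windows were 61.2% and 50%, against 55.4%, and agreeing windows 79.4% and 77.2%, against 77.1%. Ends of 50 kb were 36.2% (last) and 81.0% (first) covered, and ends of 200 kb 72.8% (last) and 80.02% (first). Overlaps of at least 50% of the cluster gave 80.9% of clusters with a partner, and of 50% of both clusters 62.4%. The cause was not tested. A minimum width of 1 kb removed nothing, so every value could only stay under it. Leaving out ChIP replicate 1 or 2 gave coverage of 73.6% to 78.5%, 158 to 173 dense and 31 to 39 open windows. Values held to 1 SD could only stay here, because each of 2 replicates lies within 1 SD of their mean. No paired analysis was possible because the inputs have no list here, so a single labelled group has values. Depth is unknown.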
